A study of Rattus norvegicus with 6 samples.

Results

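The transcription factors examined here are the 9 genes of the E protein, Twist, Snail and Zeb families that drive the change of epithelial into mesenchymal cells. They were listed by name, with earlier results of these atria already known. Each of Tcf3, Tcf4, Tcf12, Twist1, Twist2, Snai1, Snai2, Zeb1 and Zeb2 has 1 probe set that carries its symbol alone, and all 9 probe sets exceeded a log2 signal of 5 on each of the 6 arrays, so that the filter on dim probe sets, which asks for a signal over 5 on 1 array or more, removed none of them. The 9 genes are part of the 11237 genes that this filter kept. Tcf3 is among the genes the study itself selected from these samples, so its change is not independent evidence.

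Adult male Sprague-Dawley rats of 250 to 320 g were exposed for 48 hours to rapid atrial pacing (RAP) at a cycle length of 70 ms or to control pacing at 140 ms, with 3 rats in each group and 1 array per rat. All rats drank atenolol, which slows conduction to the ventricles, the ventricular rate was the same in both groups, and all received heparin before the left atrium was taken. The control atria were thus paced as well, at the slower rate. The rats were not manipulated genetically, and each RAP rat was operated on and paced alongside its own control in a neighbouring cage. These are pairs 1 to 3. The comparison asks which RNAs of the atrium differ at the faster rate, and here whether those of factors of epithelial-to-mesenchymal transition (EMT) do.

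E proteins are basic helix-loop-helix (bHLH) factors made in most tissues. They bind a short DNA word, the E-box, as dimers with each other or with tissue-specific partners such as Twist1 and Twist2, and Id proteins, which lack the DNA-binding region, sequester them. Snail and Zeb proteins are zinc finger factors that bind the same kind of word and repress epithelial genes such as Cdh1, the E-cadherin of cell junctions. In the heart these factors are known from the epicardium and the valve cushions of the embryo, where cells leave an epithelium and become fibroblasts or valve mesenchyme. Tcf3 and Tcf4 should not be confused with the Wnt factors Tcf7l1 and Tcf7l2, which once had the same protein names.

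The DNA word was looked for in the promoters of the factors that fell with RAP (Tcf3 and Twist1, the latter without the word). It is also shown for factors that carry its Snail- and Zeb-type form (Snai1 and Zeb1) and for a repressed gene of epithelial junctions (Ocln, occludin). The windows run from 250 bases before to 50 bases after the start of each gene (RefSeq, GRCr8). Capitals mark each CANNTG, the general E-box. As a pattern it is the same on both strands, though its inner letters need not be.
Tcf3 (chr7:9931001-9931300, + strand): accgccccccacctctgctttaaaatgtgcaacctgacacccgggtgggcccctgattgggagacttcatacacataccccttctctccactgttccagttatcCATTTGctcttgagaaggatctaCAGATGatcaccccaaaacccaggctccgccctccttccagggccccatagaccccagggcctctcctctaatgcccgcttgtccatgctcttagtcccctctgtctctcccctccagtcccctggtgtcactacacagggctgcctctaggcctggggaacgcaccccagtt
Twist1 (chr6:56402059-56402358, + strand): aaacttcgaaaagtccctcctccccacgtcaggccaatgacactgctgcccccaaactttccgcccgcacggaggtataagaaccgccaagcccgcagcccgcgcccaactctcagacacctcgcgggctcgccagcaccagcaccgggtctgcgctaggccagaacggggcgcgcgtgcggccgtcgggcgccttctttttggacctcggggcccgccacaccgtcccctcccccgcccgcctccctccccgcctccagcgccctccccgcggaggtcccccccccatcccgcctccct
Snai1 (chr3:176667226-176667525, + strand): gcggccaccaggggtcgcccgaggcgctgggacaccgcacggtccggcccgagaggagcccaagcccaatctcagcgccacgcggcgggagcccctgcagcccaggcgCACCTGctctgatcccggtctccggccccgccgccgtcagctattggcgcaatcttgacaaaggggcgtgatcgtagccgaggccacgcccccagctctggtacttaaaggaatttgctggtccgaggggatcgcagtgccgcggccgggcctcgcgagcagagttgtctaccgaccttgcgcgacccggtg
Zeb1 (chr17:56810604-56810903, - strand): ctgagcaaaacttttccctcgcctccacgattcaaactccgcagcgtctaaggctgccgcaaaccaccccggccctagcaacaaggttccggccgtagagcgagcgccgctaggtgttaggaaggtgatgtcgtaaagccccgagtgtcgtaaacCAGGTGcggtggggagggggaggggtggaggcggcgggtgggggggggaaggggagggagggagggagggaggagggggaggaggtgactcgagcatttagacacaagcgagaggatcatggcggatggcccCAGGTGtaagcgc
Ocln (chr2:33441149-33441448, - strand): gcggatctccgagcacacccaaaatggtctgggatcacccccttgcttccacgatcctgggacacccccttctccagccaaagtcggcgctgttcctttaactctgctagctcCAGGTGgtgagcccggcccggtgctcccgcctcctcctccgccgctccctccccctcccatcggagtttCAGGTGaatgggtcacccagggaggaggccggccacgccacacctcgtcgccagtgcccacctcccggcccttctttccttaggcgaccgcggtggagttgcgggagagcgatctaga

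A window was found for 8 of the 9 factors, the exception being Snai2. An E-box was present in 4 of these 8 windows, while 72.1% of all 33469 windows of this length hold one. Its form CAGGTG, which reads CACCTG on the other strand and is the one Snail and Zeb factors prefer, was present in 2 of the 8 windows, once in Snai1 and in 2 places in Zeb1, against 18.8% of all windows. Of the 15 windows found for the epithelial genes taken as targets, 12 held this form. A match describes the letters of the window and says nothing of binding in these atria.

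With RAP, 2 of the 9 factors fell and 0 rose. These were Tcf3, which was lower by 1.48-fold, and Twist1, which was lower by 1.32-fold. Rose and fell are used for genes past the thresholds in the study's methods, namely a fold change above 1.3 with a p under 0.05 before adjustment, here by limma with the pair blocked. Of all 11237 genes 6.39% passed these thresholds, 3.45% lower and 2.94% higher. Beside this background, 2 of 9 is a count too small to set the factors apart. After Benjamini-Hochberg adjustment over the 19907 probe sets kept, 0 of the 9 factors and 0 of all genes had a limma p under 0.05 (unadjusted, 2 and 774). The adjusted p by the methods' paired t-test was under 0.05 for 0 genes as well, and 234 genes passed both thresholds by it. Relative to control pacing, 7 of the 9 factors had a lower mean with RAP, and the median change of the factors was -0.30 on the log2 scale, where the median of all genes was -0.0074 and 51.2% of them had a lower mean. Whether lower RNA in whole atrial tissue comes from fewer cells that make it or from less RNA per cell cannot be told apart.

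**Figure D1:**
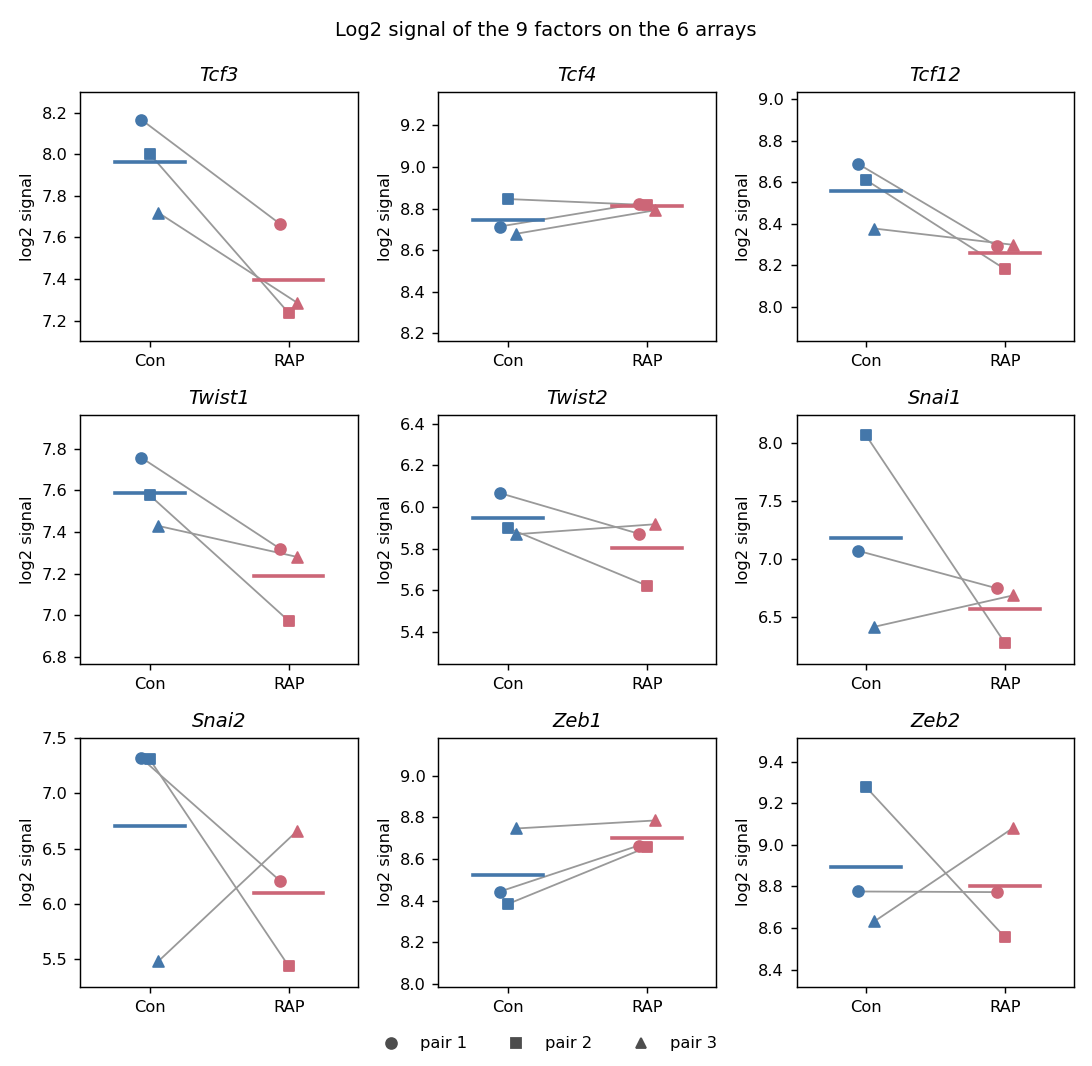
Log2 signal of each factor after control pacing (Con) and RAP, with the 2 arrays of a pair joined, 1 symbol per pair, and bars at the group means. The signal scale differs between panels. The RAP arrays lie below all control arrays for Tcf3, Tcf12 and Twist1, and pair 3 runs upwards for Twist2, Snai1, Snai2, Zeb1 and Zeb2 and for Tcf4.

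Tcf3, an E protein that directs the development of B cells and muscle and can repress E-cadherin, had log2 signals of 8.17, 8.002 and 7.72 in controls 1, 2 and 3. With RAP its signals were 7.66, 7.24 and 7.29 in the same pairs. Every RAP array lay below every control array, and the change was -0.50, -0.77 and -0.43 in pairs 1, 2 and 3. The mean fell from 7.96 (SD 0.23, n = 3) to 7.40 (SD 0.23, n = 3), a change of -0.57 on the log2 scale with a moderated standard error (SE) of 0.14 and a 95% confidence interval from -0.94 to -0.20 (limma, adjusted p = 0.756). By the methods' paired t-test Tcf3 passed the same thresholds. It did not pass without replicate 1 (-0.60), without replicate 2 (-0.47) or, unpaired, without control 1 (-0.47), where its direction was kept with fewer arrays. Its promoter, printed above, holds the E-box words CATTTG and CAGATG upstream of the start of the gene, whereas that of Twist1 holds none.

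Tcf12, the E protein that pairs with Twist and other partners in mesenchyme and muscle, differed in the same direction at a smaller size. Its log2 signals were 8.69, 8.61 and 8.38 in the controls and 8.29, 8.18 and 8.30 with RAP. The RAP and control arrays did not overlap. The change of -0.30 (SE 0.14, 95% confidence interval -0.68 to 0.08) was nevertheless under the fold threshold and did not pass that on p either (limma, adjusted p = 0.757). Nearly all of it came from pairs 1 and 2 (-0.40 and -0.43), with -0.08 in pair 3, and Tcf12 did pass without replicate 3 (-0.41) and, unpaired, without control 3 (-0.39).

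Tcf4, the E protein of plasmacytoid dendritic cells and the nervous system, varied least among the 9 factors. Its log2 signals lay between 8.68 and 8.85 in the controls and between 8.79 and 8.82 with RAP. The change was 0.06 (SE 0.13), with an interval from -0.27 to 0.40 that still includes a fold change of 1.3 upwards but not downwards. The change of Tcf3 was below that of Tcf4 in each pair, by 0.61, 0.74 and 0.55 on the log2 scale. For this and the 5 other differences within families an exact sign-flip test over 3 pairs was used, which cannot give a two-sided p under 0.25. That smallest p was reached by Tcf3 against Tcf4, Tcf3 against Tcf12 (mean -0.27, SD 0.14, n = 3 pairs), Tcf12 against Tcf4 (mean -0.37, SD 0.16) and Twist1 against Twist2 (mean -0.26, SD 0.07), each with an adjusted exact p of 0.375 over the 6 differences. In these data the E proteins thus gave different point estimates that 3 pairs cannot separate by this test.

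Twist1, a bHLH factor of mesenchyme that dimerizes with E proteins, had log2 signals of 7.76, 7.58 and 7.43 in controls 1, 2 and 3 and of 7.32, 6.97 and 7.28 with RAP. The groups did not overlap, and from highest to lowest the 6 arrays stood in the same order as for Tcf3. The change was -0.40 (SE 0.15, limma, adjusted p = 0.756), with -0.44, -0.60 and -0.15 in the 3 pairs. The call rests on a narrow margin, since the confidence interval ran from -0.79 to -2.9e-04. Twist1 did not pass by the methods' paired t-test, with a variance trend, with the stricter filter, with the arrays centred on their medians or after a further quantile normalization. Nor did it pass without replicate 1 (-0.38) or replicate 2 (-0.29), nor, unpaired, without control 1 (-0.31), control 2 (-0.40) or RAP 2 (-0.29).

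Twist2, its close relative in skin and muscle connective tissue, differed by -0.14 (SE 0.14). Its log2 signals were 6.07, 5.90 and 5.87 in the controls and 5.87, 5.62 and 5.92 with RAP, and the groups overlapped. The interval of the change, -0.51 to 0.23, allows a fall past a fold of 1.3 and allows none of a rise of that size. Across all genes 15.4% had RAP and control arrays that did not overlap, against 3 of the 9 factors (Tcf3, Tcf12 and Twist1).

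**Figure D2:**
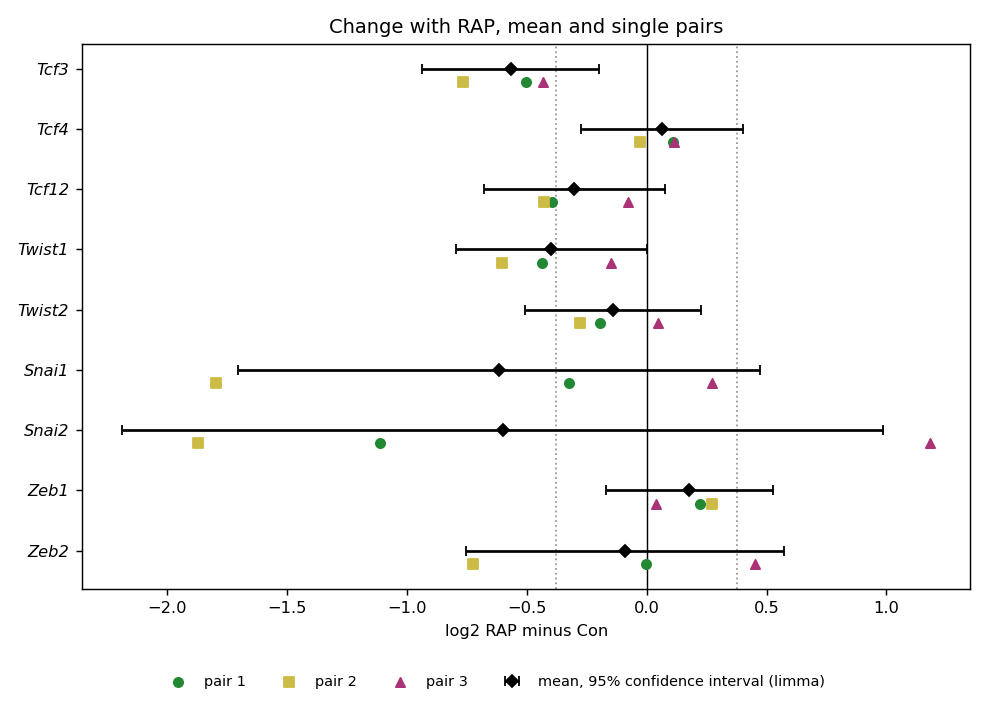
Change of each factor with RAP on the log2 scale, as the limma mean with its 95% confidence interval and as the 3 single pairs below it. Dotted lines mark a fold change of 1.3. The intervals of Tcf3 and Twist1 end below 0, that of Twist1 only just. Pair 3 lies to the right of the other pairs for every factor but Zeb1, by little in Tcf4 and by most in Snai1, Snai2 and Zeb2.

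The Snail factors had the largest mean changes of the 9 genes and did not pass. Pair 3 went the opposite way from pairs 1 and 2 in both. Snai1, the repressor that is induced early in EMT, had log2 signals of 7.07, 8.07 and 6.41 in the controls and 6.75, 6.27 and 6.69 with RAP. Control 2 was the high array, followed by control 1, and the remaining control lay among the RAP arrays. The mean change of -0.62 (SE 0.42, 95% confidence interval -1.71 to 0.47) was made of -0.32, -1.80 and 0.27 in pairs 1, 2 and 3. Without replicate 2 it was -0.026, and without control 3 and the block it passed (-1.002).

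Snai2, the Snail factor of neural crest and mesenchyme also known as Slug, varied most among the 9 factors. Its log2 signals were 7.32, 7.31 and 5.48 in controls 1, 2 and 3 and 6.21, 5.43 and 6.66 in RAP 1, 2 and 3. Control 3 and RAP 2 were the low arrays, and the groups overlapped. The change of -0.60 (SE 0.61, interval -2.19 to 0.99) combined -1.11 and -1.87 in pairs 1 and 2 with 1.18 in pair 3. Leaving out replicate 3 gave -1.49 and a pass, and leaving out replicate 2 turned the sign (0.035). The spread of Snai2 within the groups (0.87) was larger than that of 98.1% of all genes, and that of Tcf4 (0.06) larger than that of only 2.98%.

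Zeb1 and Zeb2, zinc finger repressors of E-cadherin that keep mesenchymal cells in their state, moved in different ways from array to array. Zeb1 had log2 signals of 8.44, 8.38 and 8.75 in the controls and 8.66, 8.66 and 8.79 with RAP. It was the only one of the 9 factors that was higher with RAP in all 3 pairs (0.22, 0.27 and 0.04), with a change of 0.18 (SE 0.13, interval -0.17 to 0.53) that did not pass. Zeb2, which macrophages also make, had signals of 8.78, 9.28 and 8.63 in the controls and 8.77, 8.56 and 9.08 with RAP, the highest array being a control and the next highest RAP 3. Its change was -0.09 (SE 0.25, interval -0.76 to 0.57), with -0.0030, -0.72 and 0.45 in pairs 1, 2 and 3. Without replicate 2 it was 0.22. Between Zeb1 and Zeb2 the difference of the changes was 0.27 (SD 0.70, n = 3 pairs, exact sign-flip p = 0.75), and between Snai1 and Snai2 it was -0.02 (SD 0.85, n = 3 pairs, exact sign-flip p = 1).

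Pair 3 was the odd pair across the factors. The median change of the 9 factors was -0.32 in pair 1, -0.60 in pair 2 and 0.05 in pair 3, and 7, 8 and 3 of the 9 were lower with RAP in these pairs. For 4 factors (Tcf3, Tcf12, Twist1 and Zeb1) all 3 pairs changed one way, as did those of 28.4% of all genes. The arrays themselves were alike in overall signal, with medians from 5.82 to 5.85 and 62.6 to 63.8% of probe sets above 5. On the first principal component of the 19907 probe sets (41.2% of the variance), control 3 lay at 17.9, between RAP 1 (11.9) and RAP 2 (41.5). Without replicates 1, 2 and 3, respectively, 0, 0 and 4 of the factors passed, the last being Snai2, Tcf12, Tcf3 and Twist1. In those settings 1.46, 3.36 and 22.1% of all genes passed.

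Markers of other cells moved with several of the factors. Zeb2 ordered the 6 arrays exactly as the means of 16 fibroblast and of 19 macrophage markers did, from control 2, RAP 3 and control 1 at the top to RAP 1, control 3 and RAP 2. Snai2 differed from it in the order of the top 3 arrays, and Snai1 in that of control 1, RAP 1 and RAP 3. Fibroblast markers deviated from their means by 0.65 in control 2 and by -0.60 in RAP 2, and were lower with RAP in pairs 1 and 2 (-0.45 and -1.25) and higher in pair 3 (0.68). Macrophage markers did the same (-0.45, -1.63 and 0.59). Their log2 summed signal ranged from 14.2 to 15.2 in the controls and from 14.1 to 14.9 with RAP for fibroblasts, and from 12.5 to 14.001 and from 12.2 to 13.3 for macrophages. Of the fibroblast markers 1 fell (Fbln1, a fibulin of the matrix) and of the macrophage markers 1 (Vsig4, a complement receptor). Of all genes 6.39% passed. On average 11 of the 16 fibroblast markers were lower with RAP. Gsn (0.49), Pi16 (0.28), Dpt (0.24), Mfap5 (0.22) and Ddr2 (0.17) were higher. All 19 macrophage markers measured were lower on average. All 16 fibroblast and 19 of 21 macrophage markers were measured.

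Tcf3, Tcf12 and Twist1 did not share that order, since in them RAP 3 lay below every control and control 3 above every RAP array. RAP 2 was the lowest array in these 3 factors too. Epicardial and mesothelial markers come from the surface layer of the heart. Their mean was lower with RAP in all 3 pairs (-1.05, -0.15 and -0.58). In pair 2 the single genes went both ways, from -2.16 in Prg4 to 2.45 in Gpm6a. Of 13 measured, 4 fell (Prg4, Tbx18, Wt1 and Msln), with a log2 summed signal from 13.2 to 13.96 in the controls and from 12.99 to 13.1 with RAP. The mesothelial marker Calb2 did not exceed the signal of 5 on any array, and Upk3b, Muc16 and Lrrn4 are not named alone by any probe set. Prg4, with the largest change of the list (-2.20), had log2 signals of 10.2, 10.2 and 9.83 in the controls. With RAP they were 8.63, 8.01 and 7.00. The RAP arrays of Prg4, Tbx18 and Msln all lay below the control arrays, while those of Wt1 overlapped. Arrays of the groups did not overlap in 15.4% of all genes. The same held for the macrophage marker Vsig4 and, upwards, for the cardiomyocyte markers Pam and Myh6. The mean of the list did not separate the groups, as RAP 3 (-0.18) lay above control 2 (-0.25). Of the 13 genes 10 were lower on average with RAP, while Krt7 (0.02), Krt19 (0.06) and Gpm6a (0.61) were higher. Markers of atrial cardiomyocytes (14 genes) were higher with RAP in pairs 1 and 2 (0.33 and 0.70) and at -0.07 in pair 3, and 2 of them rose (Myh6, a myosin heavy chain, and Pam), with Nppa, Myl7 and Sln of the atrial chamber all above the signal of 5. Endothelial markers (16 genes) had a median change of 0.04, and markers of T, B and NK cells (12 genes), in which E proteins act as well, of 0.01, and of these only Gzmb, the granzyme of cytotoxic cells, passed the thresholds (higher). Erythroid markers (7 genes) were high in control 3 (1.95 above their mean), and cell cycle genes (27) high in RAP 1 (1.04) and low in RAP 2 (-1.06). The part of any cell type in the changes of the factors was not tested.

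**Figure D3:**
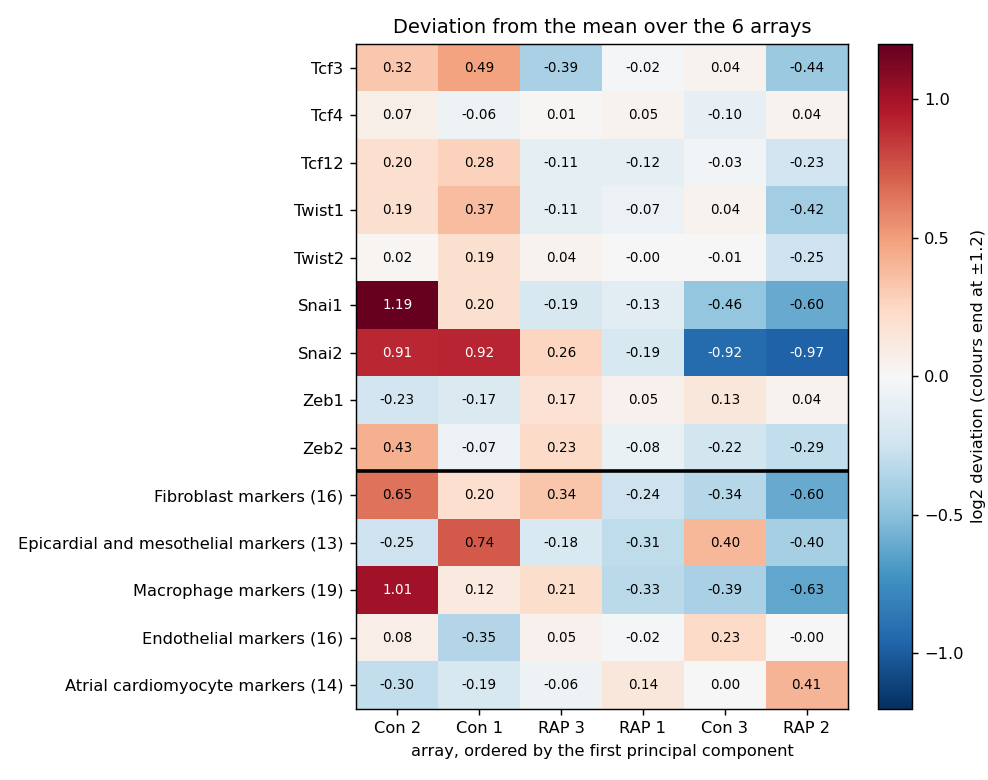
Deviation of each factor, and of the mean of 5 lists of cell type markers (number of genes in brackets), from its own mean over the 6 arrays on the log2 scale. The arrays are ordered by the first principal component. Snai1, Snai2 and Zeb2 are high in control 2 and low in RAP 2, as are fibroblast and macrophage markers. Tcf3, Tcf12 and Twist1 are also above their means in control 2 and lowest in RAP 2, and they are below their means on every RAP array.

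The RNAs of genes around the factors were read from lists written from textbook knowledge. Of all genes 6.39% passed with all arrays, 22.1% without replicate 3 and, unpaired, 15.4% without control 3. The 4 Id proteins, inhibitors of E proteins, had 0 genes past the thresholds and a median change of 0.18. Id1 differed by 0.07 (SE 0.18), Id2 by 0.34 (SE 0.29) and Id3 by -0.11 (SE 0.23). Id2 was higher in pairs 1 and 2 (0.81 and 0.69) and lower in pair 3 (-0.47), and without replicate 3, or unpaired without control 3, 2 of the Id genes passed, both higher. Of 10 tissue-specific bHLH partners 0 passed (median 0.07), against 2 higher without replicate 3 and 3 lower, unpaired, without control 1. Of 4 relatives with like names, among them Tcf7l1 (-0.06, SE 0.16), 0 passed. Of 14 corepressors and chromatin partners of Snail and Zeb 1 fell, Ehmt2, a histone methyltransferase (-0.48, SE 0.18). The corepressor list had 0 genes past the thresholds by the methods' paired t-test, without replicate 1 or 2 and, unpaired, without any one array but control 3. Of 11 kinases and ubiquitin ligases that control Snail and Twist protein 0 passed, against 2 higher and 1 lower without replicate 3 and 2 higher, unpaired, without control 3.

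Among 25 inputs from TGF-β, Notch, Wnt, hypoxia and growth factor receptors 3 fell and 1 rose, where 6.39% of all genes passed. Tgif1, a homeodomain repressor of SMAD-driven transcription, fell by 1.15 (SE 0.32) on the log2 scale, Egfr, the receptor of epidermal growth factor, by 1.00 (SE 0.27), and Met, the receptor of hepatocyte growth factor, by 0.82 (SE 0.23). Tgfb2, a TGF-β ligand that starts EMT in the embryonic heart, rose by 0.49 (SE 0.14). Tgfb1 differed by -0.40 (SE 0.28) and did not pass. By the methods' paired t-test 1 of the 25 rose and 0 fell, so that all 3 falls were lost. Without replicate 1 the list had 1 fall and 0 rises, and without replicate 3 it had 8 falls and 1 rise. In these 2 settings 1.46 and 22.1% of all genes passed. Unpaired, 2 fell and 0 rose without control 1 and likewise without control 2. The median of the list was -0.16, with 18 of 25 lower on average.

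Of the epithelial genes that the factors repress, Cdh1 did not exceed a log2 signal of 5 on any array (4.43 to 4.80), nor did Epcam (3.03 to 3.54), so neither was tested. Of 19 epithelial genes measured 1 rose, Pkp2, the plakophilin of desmosomes, which cardiomyocytes also make at their intercalated discs (0.80, SE 0.18, with 0.67, 1.21 and 0.53 in the pairs). Ocln, whose promoter is shown above, differed by -0.06 (SE 0.27). The epithelial list had 0 calls with the methods' paired t-test and, unpaired, without control 1 or without control 2, whereas 2 rose and 2 fell without replicate 3, 1 rose and 1 fell, unpaired, without control 3, and 1 rose and 2 fell without RAP 3. The median of the list was 0.06. Of 25 mesenchymal genes 0 passed the thresholds, with a median of -0.40 and 20 of 25 lower on average, beside the 51.2% of all genes. The lists share genes with the marker lists above. Postn, Col1a1, Col1a2, Col3a1, Pdgfra and Ddr2 are both mesenchymal genes and fibroblast markers. Krt7, Krt8, Krt18 and Krt19 are both epithelial genes and epicardial and mesothelial markers. Cdh2, the N-cadherin of mesenchyme and of cardiomyocyte junctions, differed by 0.23 (SE 0.19), and Vim, the filament protein vimentin, by -0.40 (SE 0.25). Vim was lower in pairs 1 and 2 (-0.55 and -0.90) and higher in pair 3 (0.25). Without replicates 1, 2 and 3, respectively, 0, 0 and 14 of the mesenchymal genes fell and 0, 1 and 1 rose. The share of all genes that passed was then 1.46, 3.36 and 22.1%. Unpaired, 1 fell with all arrays, 8 fell without control 3, and 2 fell and 1 rose without RAP 3. MicroRNAs of the miR-200 and miR-34 families, which target Zeb and Snail RNAs, are not named alone by any probe set.

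**Figure D4:**
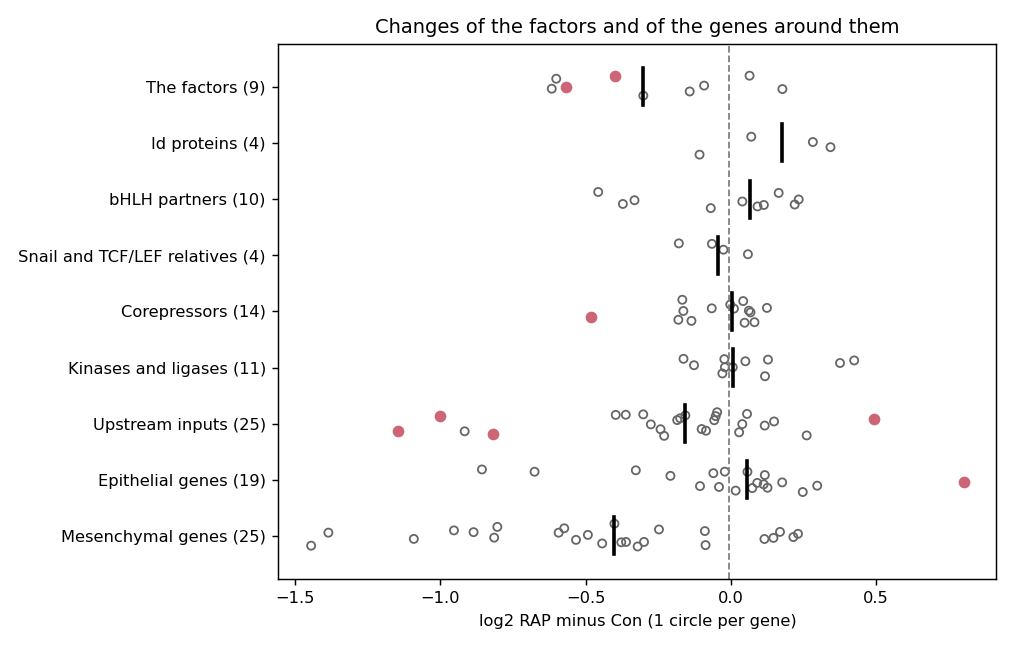
Change with RAP on the log2 scale for each measured gene of the 9 factors and of 8 lists around them (number of genes in brackets). Filled circles passed the thresholds, black bars are the medians and the dashed line is the median of all genes. The median of the mesenchymal genes lies at -0.40 without any of its genes past the thresholds.

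For the factors that passed, the genes most like them over the 6 arrays were found by the root mean square difference of the log2 values after each gene's mean had been subtracted. For Tcf3 these were Rnf145 (difference 0.04), a ring finger protein, Lmf2 (0.05) and Sh3tc1 (0.06), with changes of -0.60, -0.51 and -0.61. For Twist1 they were Rin1 (0.04), an effector of Ras, Stim2 (0.05), a calcium sensor of the endoplasmic reticulum, and Dap (0.05), with changes of -0.44, -0.43 and -0.40. Among the 9 factors themselves, Tcf12 and Twist1 were the most alike (0.09), followed by Tcf12 and Twist2 (0.11). The likeness follows from 6 arrays and is a description only.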

How the data were processed

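RNA from the left atria of 6 rats was hybridized to 1 GeneChip Rat Gene 1.0 ST array each. For each probe set the authors deposited a log2 signal, made from the scans in Partek (version not given in the sources used here) by robust multiarray averaging (RMA), with background correction and quantile normalization. They were used as deposited. Of 29214 probe sets, 15310 carry 1 gene symbol in the array's annotation, and each gene is given by its probe set of highest mean.

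The 19907 probe sets over a log2 signal of 5 on 1 array or more were tested with limma 3.58.1 (R 4.3.3), with the pair as a block and 2 residual and 2.76 prior degrees of freedom, at an unadjusted p under 0.05 and a fold above 1.3. The p-values were adjusted over these probe sets by the Benjamini-Hochberg method. The factors and gene lists were chosen with earlier results of these data known. Named are the 9 factors, up to 4 genes per list past the thresholds by size, Id1, Id2, Id3, Cdh1, Cdh2, Vim and Tgfb1, and the 3 genes most like each factor that passed. Genes named outside that rule (Tcf7l1, Epcam, Ocln and markers) were chosen after their values were seen.

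The pairs come from the labels and the study's methods. The deviations of paired arrays from their group means were correlated across probe sets at 0.22, -0.24 and -0.32 in pairs 1, 2 and 3. The alternatives were no block, the methods' paired t-test, a variance trend with robust moderation, other filters (none, or a log2 signal over 6 on 3 arrays or more) and scalings, and leaving out each pair or, unpaired, each array. The number of arrays limits the precision, and an exact permutation test of 3 against 3 cannot give a two-sided p under 0.1. Promoter windows are RefSeq's on GRCr8, which is not a build of the array files.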

Additional observations from a re-analysis of the deposited data

How the results depend on the processing

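The count of 2 factors past the thresholds was kept without filter on dim probe sets and with no pair as a block (no replicate block, 2 factors, again Tcf3 and Twist1). It was 1, Tcf3 alone, by the methods' paired t-test, with a variance trend and robust moderation, with the stricter filter (which removed Twist2), with the arrays centred on their medians and after a further quantile normalization. Leaving out a replicate as a pair gave 0 to 4 factors, and leaving out 1 array without the block gave 0 (without control 1) to 5 (without control 3, with Snai1, Snai2, Tcf12, Tcf3 and Twist1), and 1, 2, 1 and 2 without control 2, RAP 1, RAP 2 and RAP 3. The share of all genes past the thresholds moved as well, to 3.63, 4.57 and 15.4% without controls 1, 2 and 3 and to 7.502, 4.64 and 10.2% without RAP 1, 2 and 3. All factors passing in any of these settings were lower with RAP. Of the 16 alternatives, Tcf3 passed in 13 and Twist1 in 6. The sign turned for Snai2 without replicate 2 (from -1.49 to 0.035 over the pairs left out) and for Zeb2 without replicate 2 (from -0.36 to 0.22), as it did for Zeb2 with no block when control 2 (0.099) or RAP 2 (0.032) was dropped, and the cause was not tested. The block changed no call among the 9 factors. Each factor has 1 probe set, so that no other probe set could be tried.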
